A study of Mus musculus with 22 samples.

Results

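The genes described here are 43 interferon-stimulated genes, genes that cells switch on when a type I interferon binds its receptor. They were chosen by name from a list of such genes and had to be present in both gene count tables of the series, and all 43 of the listed genes were, among 31116 genes that the tables share. Their counts came from sorted lung cells of adult C57BL/6 mice that are homozygous for an inducible SP-CI73T allele, a form of surfactant protein C that is made by the alveolar type 2 cells of the lung and not by the sorted cells themselves. A single oral gavage of tamoxifen activates a Flp-O recombinase knocked into the *Rosa26* locus, which removes a neomycin cassette and so raises the mutant protein and starts a lung injury. Ly6Chi monocytes (CD11b+Ly6Chi, recruited from the blood) were sequenced from 4 control libraries, 4 libraries at 3 d and 4 libraries at 14 d after tamoxifen, and SigF+CD11b- alveolar macrophages (resident cells of the air spaces) from 4 control libraries, 3 libraries at 3 d and 3 libraries at 14 d. The control animals are labelled untreated and carry the mutant genotype too, and the study describes the controls of the sequenced monocytes as mutant mice given oil. The labels do not say whether the libraries of a group came from separate mice, and p-values therefore measure only the spread between these libraries.

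A type I interferon binds a receptor made of IFNAR1 and IFNAR2, whose attached kinases JAK1 and TYK2 activate a transcription factor complex that holds STAT2 and IRF9. The complex binds the interferon-stimulated response element, a short DNA motif close to the start of many of these genes, and the genes then make proteins that sense viral RNA or DNA, degrade or sequester it, block entry and budding, or dampen the signal. IRF7, itself one of the genes, amplifies the response. In the lung, monocytes and alveolar macrophages both carry the receptor and hold a low, steady level of these transcripts even without infection.

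To show the motif in the genes that the results turn on, the stretch around it is given for 7 of the genes described below whose window held it, read from RefSeq promoter sequences of build GRCm38.p6 on the strand of the gene, with the matches in capitals. The motif searched was GAAANNGAAA on either strand in the 250 bases before the annotated start, so a match on the other strand reads TTTCNNTTTC, and matches may overlap.
*Isg15* (chr4:156200855-156200916, minus strand): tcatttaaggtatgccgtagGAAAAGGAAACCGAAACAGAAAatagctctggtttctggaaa
*Ifit1* (chr19:34640765-34640833, plus strand): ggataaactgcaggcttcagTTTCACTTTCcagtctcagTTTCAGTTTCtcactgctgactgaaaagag
*Ifit3* (chr19:34583353-34583436, plus strand): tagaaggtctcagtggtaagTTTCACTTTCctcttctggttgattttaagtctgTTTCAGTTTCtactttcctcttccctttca
*Ifit3b* (chr19:34607749-34607832, plus strand): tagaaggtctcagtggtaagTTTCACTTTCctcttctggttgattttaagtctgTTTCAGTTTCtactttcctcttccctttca
*Oas1a* (chr5:120907526-120907565, minus strand): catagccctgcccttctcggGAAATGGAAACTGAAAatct
*Rsad2* (chr12:26456543-26456592, minus strand): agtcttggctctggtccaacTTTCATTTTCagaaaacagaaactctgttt
*Slfn5* (chr11:82951927-82951976, plus strand): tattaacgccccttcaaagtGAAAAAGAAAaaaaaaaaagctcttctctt
The first match began 78 bases before the start in *Isg15*, 104 in *Ifit1*, 156 in *Ifit3*, 188 in *Ifit3b*, 20 in *Oas1a*, 120 in *Rsad2* and 155 in *Slfn5*. *Isg15* held 3 overlapping matches, while *Ifit1*, *Ifit3*, *Ifit3b* and *Oas1a* held 2 each. The stretches of *Ifit3* and *Ifit3b* were identical over all 84 bases, and reads of these neighbouring copies may have been split between them. A window was found for 34 of the 43 genes, and 14 of these 34 (41.2%) held the motif, against 936 of 27025 genes with a window in all (3.46%). The gamma-activated site TTCNNNGAA was present in 5 of the 34 (14.7%), against 8.13% of all genes. These matches describe the sequence and are not evidence of binding in these cells.

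Each library held 15451460 to 28789639 counted reads in monocytes and 4610720 to 17074863 in macrophages, of which the 3 macrophage libraries at 14 d were the shallowest at 4610720 to 6838893. Levels are given as counts per 1000000 reads (CPM), with the library size scaled by the trimmed mean of M values (TMM). The sorted populations carried their labelled markers: *Ly6c2* lay between 1314 and 3459 CPM in every monocyte library and between 1.18 and 6.19 CPM in every macrophage library, and *Siglecf* lay between 90.1 and 348 CPM in every macrophage library. *Itgam*, which encodes CD11b, rose in macrophages sorted as CD11b-, from 0.73 to 2.66 CPM in control libraries and 3.65 to 18.3 CPM at 3 d to 54.9 to 102.4 CPM at 14 d (log2 fold change against control 5.45, edgeR adjusted p = 4.42e-05). All libraries at 14 d, of both cell types, held 433 to 3033 reads of 4 Y-linked genes, while no control or 3 d library held more than 3, and *Xist* ran the other way. The sex of the mice and the time of 14 d therefore cannot be told apart in any value below.

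In the control libraries, from mice of the mutant genotype, all 43 genes had a higher mean CPM in monocytes than in macrophages. For 41 of them every control monocyte library lay above every control macrophage library. The ratio of the means had a median of 21.1 and ran from 1.12 for *Ifih1*, which encodes the RNA sensor MDA5, to 2116 for *Ifitm3*, which encodes a membrane protein that blocks virus entry. These levels come from tables that were scaled separately, and the ratios carry no test. The share of all genes in both tables that separate in this way was not computed. The count of 41 is therefore not shown to be particular to these genes. Per kb of exonic length, so that genes can be set beside each other, *Ifitm3* led the control monocytes with 9642 CPM per kb, followed by *Ifi27l2a* with 4003 CPM per kb and *Bst2* with 256 CPM per kb, while *Ifi44* was lowest with 1.40 CPM per kb. In control macrophages the order began with *Lgals3bp*, which encodes a secreted glycoprotein, at 74.2 CPM per kb and *Bst2*, which encodes the virus tether tetherin, at 55.7 CPM per kb. *Ifi44* was lowest there too, at 0.0336 CPM per kb.

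In monocytes at 14 d, the whole group was down. All 43 genes were called lower than in control (adjusted p under 0.05 and a fold change above 1.5), and in all 43 every 14 d library lay below every control library. Over all 22353 genes tested, 5.34% were called lower, and in 7.97% every 14 d library lay below every control library. The log2 fold changes of the members ran from -3.40 to -1.06 with a median of -2.03, against a median of 0.09 over all genes tested, and the mean level left at 14 d was between 9.39% (*Ifit3b*) and 48.0% (*Irf9*) of the control mean, with a median of 24.4%. Adjusted p-values of edgeR's quasi-likelihood test ran up to 0.0183, the value of *Cxcl10*. All 43 were also called lower with DESeq2, with each of the other scalings of library size and with a replicate block, and 42 were called with no filter on low counts. Genes with 10 CPM or more in control, which include 42 of the members, were called lower in 11.1% of 7752 cases.

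**Figure D1:**
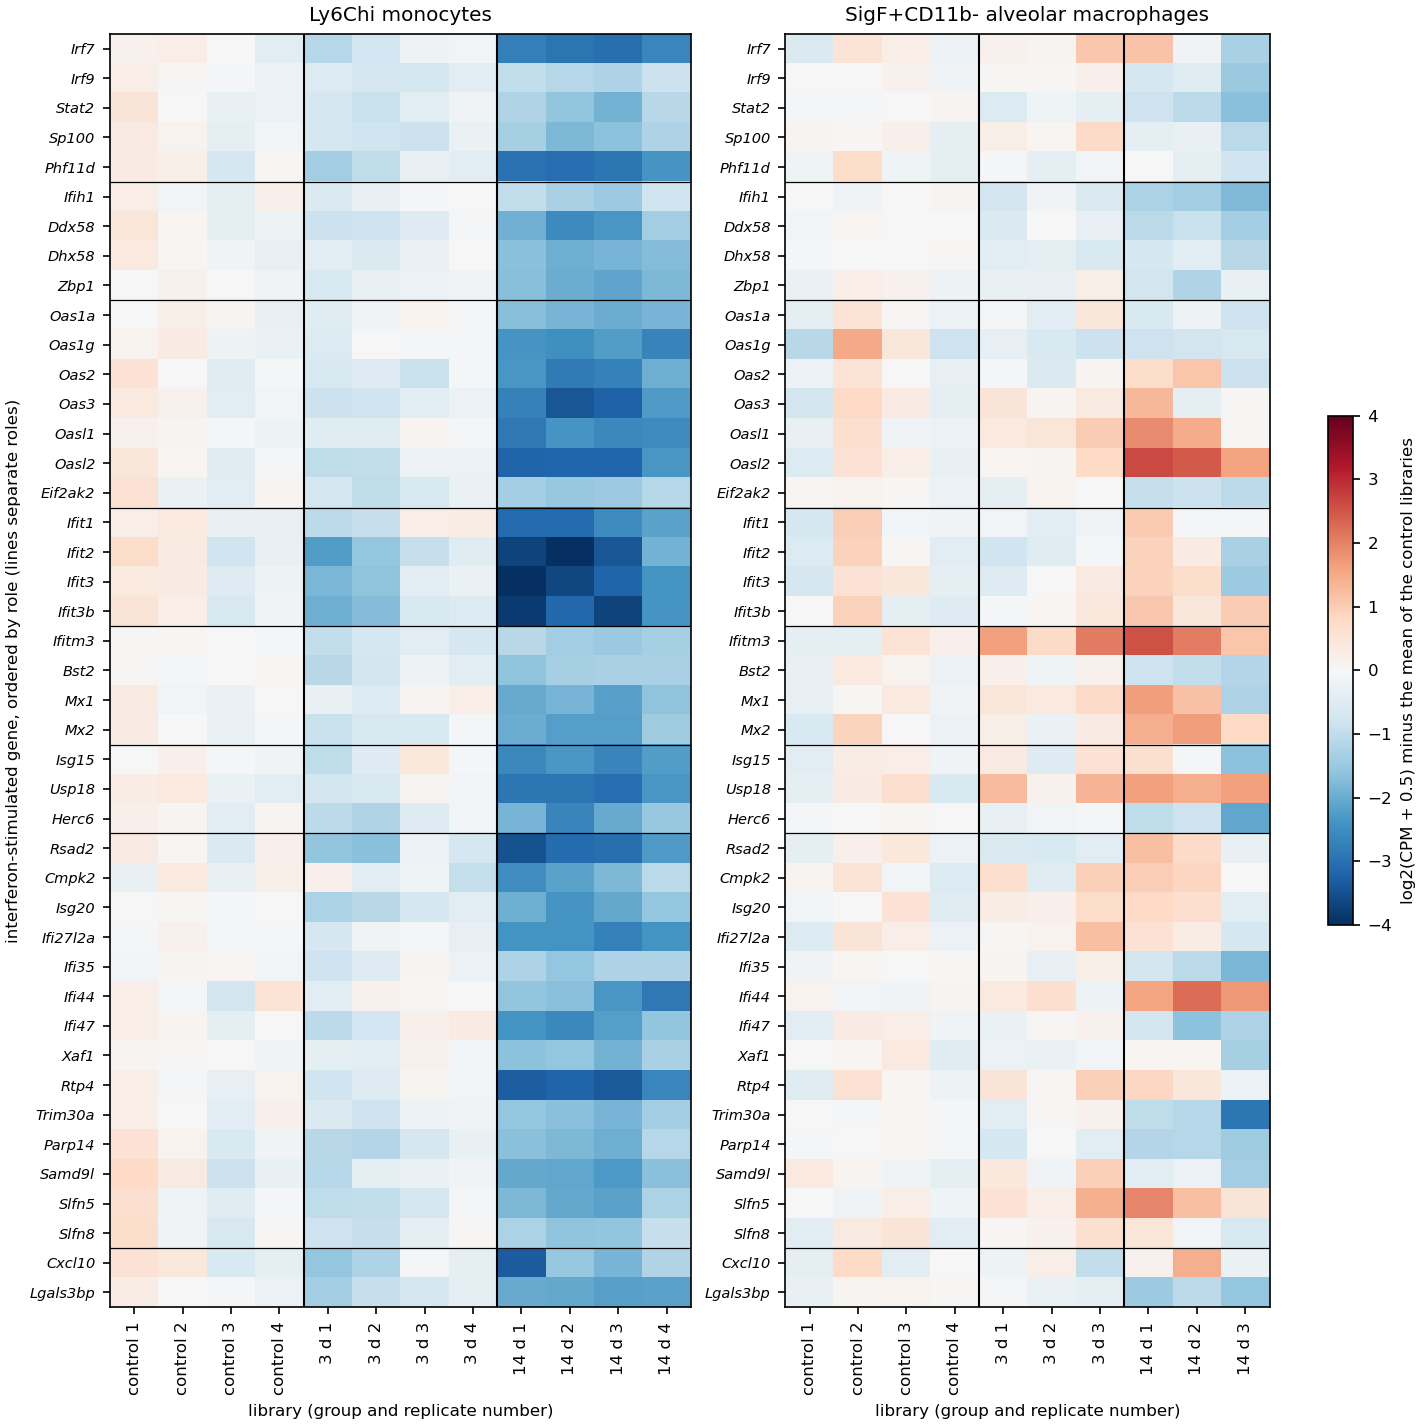
Each cell of the heat map is 1 gene in 1 library, coloured by log2(CPM + 0.5) minus the mean of the control libraries of the same cell type, with monocytes on the left and macrophages on the right and lines between roles and groups. The 4 monocyte libraries at 14 d are blue for all 43 genes, whereas in macrophages at 14 d blue and red genes stand side by side.

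The genes of the IFIT family, whose proteins bind viral RNA and stop its translation, were the most reduced role, with a median log2 fold change of -3.23 over 4 genes. *Ifit3* had 185, 177, 97.1 and 121 CPM in the control libraries, 38.8, 45.8, 104 and 115 CPM at 3 d and 6.91, 10.8, 14.9 and 26.4 CPM at 14 d. The 14 d libraries lay below all others, and at 3 d the first pair of libraries lay below the control range while the other pair lay within it. The mean was 145 ± 42.7 CPM in control and 14.8 ± 8.40 CPM at 14 d (SD, n = 4), and the log2 fold change was -3.30 (SE 0.46, edgeR adjusted p = 0.000583).

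*Ifit3b*, its near copy, had 42.3, 35.8, 18.6 and 26.6 CPM in control, 7.19, 8.58, 18.7 and 19.95 CPM at 3 d and 1.62, 2.86, 1.81 and 5.28 CPM at 14 d. This was the largest change of any member, at -3.40 on the log2 scale (SE 0.45, edgeR adjusted p = 0.000259). The 4 libraries at 14 d lay below both other groups, and at 3 d the second pair of libraries just reached the control range. *Ifit1*, the founding member of the family, had 61.7, 66.6, 41.5 and 40.2 CPM in control, 24.3, 26.9, 61.1 and 63.3 CPM at 3 d and 5.47, 5.57, 8.51 and 11.2 CPM at 14 d. From 3 d to 14 d it changed by -2.51 on the log2 scale (SE 0.35, edgeR adjusted p = 0.000586), while the 3 d libraries lay below or within the control range and the change from control to 3 d was -0.26 (edgeR adjusted p = 0.525). *Ifit2* was lower at 14 d by a log2 fold change of -3.17 (SE 0.57, edgeR adjusted p = 0.00355).

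The OAS family senses double-stranded RNA and activates RNA decay, and with *Eif2ak2*, which encodes the kinase PKR that halts translation, its 7 genes had a median log2 fold change of -2.51 at 14 d. *Oas1a*, the family member with the highest mean log2 CPM over both cell types, had 377, 438, 399 and 295 CPM in control, 266, 341, 412 and 362 CPM at 3 d and 115, 103, 94.8 and 103 CPM at 14 d. The control and 3 d libraries overlapped, and the 14 d libraries stood apart below them at 104 ± 8.35 CPM (SD, n = 4), a log2 fold change of -1.86 against control (SE 0.16, edgeR adjusted p = 1.16e-05). *Oasl2*, which encodes an OAS-like protein with ubiquitin-like domains, had 509, 393, 265 and 352 CPM in control, 181, 186, 312 and 311 CPM at 3 d and 39.4, 41.0, 40.5 and 73.4 CPM at 14 d, a change of -2.97 at 14 d (SE 0.28, edgeR adjusted p = 2.27e-05). Its relative *Oasl1*, which holds back the translation of IRF7, had 60.5, 57.8, 52.0 and 47.0 CPM in control, 38.5, 38.7, 58.0 and 52.1 CPM at 3 d and 7.10, 10.1, 8.67 and 9.11 CPM at 14 d, a change of -2.63 at 14 d (SE 0.19, edgeR adjusted p = 2.22e-06). Both lay lower in every 14 d library than in any other. The smallest change of this role was that of *Eif2ak2*, at -1.44 (SE 0.23, edgeR adjusted p = 0.00097). The near-identical pair *Oas1a* and *Oas1g* may share reads.

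The ISG15 system attaches a ubiquitin-like protein to others and takes it off. *Isg15*, the modifier itself, had 101, 119, 98.5 and 93.9 CPM in control, 50.4, 70.9, 137 and 98.7 CPM at 3 d and 16.6, 20.2, 16.1 and 21.5 CPM at 14 d. The 3 d libraries ranged below and above the control libraries, and the change to 3 d was -0.21 (SE 0.24, edgeR adjusted p = 0.482), while the change to 14 d was -2.47 (SE 0.26, edgeR adjusted p = 4.57e-05). *Usp18*, which removes ISG15 and blocks the receptor, had 206, 221, 141 and 124 CPM in control, 101, 110.5, 180.0 and 154 CPM at 3 d and 21.98, 21.6, 19.7 and 33.1 CPM at 14 d, a change of -2.84 at 14 d (SE 0.26, edgeR adjusted p = 1.59e-05). The 14 d libraries of both genes lay below every other library. *Herc6*, the mouse ligase of the system, was lower by a log2 fold change of -2.03 (SE 0.29, edgeR adjusted p = 0.000425), and 13.7% of its exonic length overlaps *Gm45193* on the same strand.

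Among the regulators, *Irf7*, the amplifier of the response, changed by -2.84 at 14 d (SE 0.23, edgeR adjusted p = 8.65e-06), while the receptor-proximal factors changed less, with -1.47 for *Stat2* (SE 0.23) and -1.06 for *Irf9* (SE 0.14). *Sp100*, a nuclear body protein and the regulator with the highest mean log2 CPM over both cell types, had 652, 557, 394 and 469 CPM in control, 309.7, 290.5, 277 and 426 CPM at 3 d and 202, 147, 164 and 217 CPM at 14 d. Only 1 library at 3 d, with 426 CPM, reached the control range, and all 14 d libraries lay below those of both other groups. Its log2 fold change at 14 d was -1.51 (SE 0.19, edgeR adjusted p = 0.000199). Of the 4 sensors of viral RNA or DNA, *Zbp1*, which detects Z-form nucleic acid and can start cell death, had 318, 353, 308 and 284 CPM in control, 203, 257, 269 and 285 CPM at 3 d and 96.9, 80.0, 73.0 and 90.4 CPM at 14 d, a change of -1.89 at 14 d (SE 0.15, edgeR adjusted p = 4.18e-06). Only 1 of the 3 d values, 285 CPM, lay within the control range, and the 14 d values lay far below it. The other sensors fell by 1.14 (*Ifih1*), 2.03 (*Ddx58*, which encodes RIG-I) and 1.84 (*Dhx58*) on the log2 scale.

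*Ifitm3* was by far the most abundant member in CPM, with 6716, 6728, 6527 and 6179 CPM in control monocytes, 3333, 4006, 4809 and 4125 CPM at 3 d and 3011, 2485, 2345 and 2613 CPM at 14 d. The 3 groups did not overlap, with the 14 d libraries lowest. The change was -0.68 at 3 d (SE 0.12, edgeR adjusted p = 0.00115) and -1.32 at 14 d (SE 0.13, edgeR adjusted p = 2.54e-05), 1 of the smaller changes of the group on the log2 scale. The other 3 membrane and Mx proteins were lower at 14 d too, *Mx2* by the log2 fold change -2.07, *Mx1* by -1.95 and *Bst2* by -1.39.

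Of the other inducible effectors, *Rsad2*, which encodes the antiviral enzyme viperin, had 120.5, 98.4, 64.5 and 111 CPM in control, 32.1, 30.1, 81.1 and 60.3 CPM at 3 d and 8.12, 10.8, 11.4 and 19.8 CPM at 14 d. At 3 d all but 1 library, with 81.1 CPM, lay below the control range, and the 14 d libraries lay below them all. The change at 14 d was -2.97 (SE 0.36, edgeR adjusted p = 0.000129). *Rtp4*, a chaperone of membrane receptors, had 292, 232, 195 and 272 CPM in control, 140.0, 172, 263 and 229.6 CPM at 3 d and 24.7, 26.4, 23.5 and 39.7 CPM at 14 d. It showed the largest loss of any member from 3 d to 14 d, at -2.81 (SE 0.23, edgeR adjusted p = 1.39e-05), and its 3 d libraries overlapped those of control. *Ifi27l2a*, which encodes a small interferon-inducible membrane protein, had 1759, 2081, 1778 and 1796 CPM in control, 1158, 1687, 1762 and 1471 CPM at 3 d and 351, 351, 284 and 355 CPM at 14 d, a change of -2.47 at 14 d (SE 0.15, edgeR adjusted p = 6.98e-07). The 3 d libraries of *Ifi27l2a* reached the control range with 1 value, 1762 CPM, and its 14 d libraries lay below all others. *Isg20*, which encodes an exonuclease of single-stranded RNA, had 69.7, 72.1, 67.3 and 71.4 CPM in control, 28.6, 32.2, 44.0 and 51.2 CPM at 3 d and 17.9, 13.3, 16.7 and 23.9 CPM at 14 d. The 3 groups of *Isg20* stood apart, with changes of -0.85 at 3 d (SE 0.21, edgeR adjusted p = 0.00435) and -1.97 at 14 d (SE 0.21, edgeR adjusted p = 5.7e-05).

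*Slfn5*, of the Schlafen family, had 613, 348, 278 and 375 CPM in control, 192, 196, 240.3 and 366 CPM at 3 d and 110.2, 92.8, 87.9 and 161 CPM at 14 d, a change of -1.84 at 14 d (SE 0.28, edgeR adjusted p = 0.000703). Its 14 d libraries lay below all the others, and 8.84% of its exonic length overlaps an antisense gene. *Ifi44*, the member with the lowest level, had 9.86, 7.75, 4.66 and 12.1 CPM in control, 6.01, 9.29, 8.38 and 8.14 CPM at 3 d and 2.41, 2.22, 1.22 and 0.685 CPM at 14 d. The 14 d values were the lowest here as well, a change of -2.39 (SE 0.39, edgeR adjusted p = 0.00118). Of the secreted products, *Lgals3bp* had 614, 512, 473 and 424 CPM in control, 195, 262, 317 and 382 CPM at 3 d and 123, 121, 111 and 113 CPM at 14 d. The groups did not overlap, and the change at 14 d was -2.11 (SE 0.19, edgeR adjusted p = 1.59e-05). *Cxcl10*, a chemokine that draws activated T cells, changed by -1.93 (SE 0.46, edgeR adjusted p = 0.0183).

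**Figure D2:**
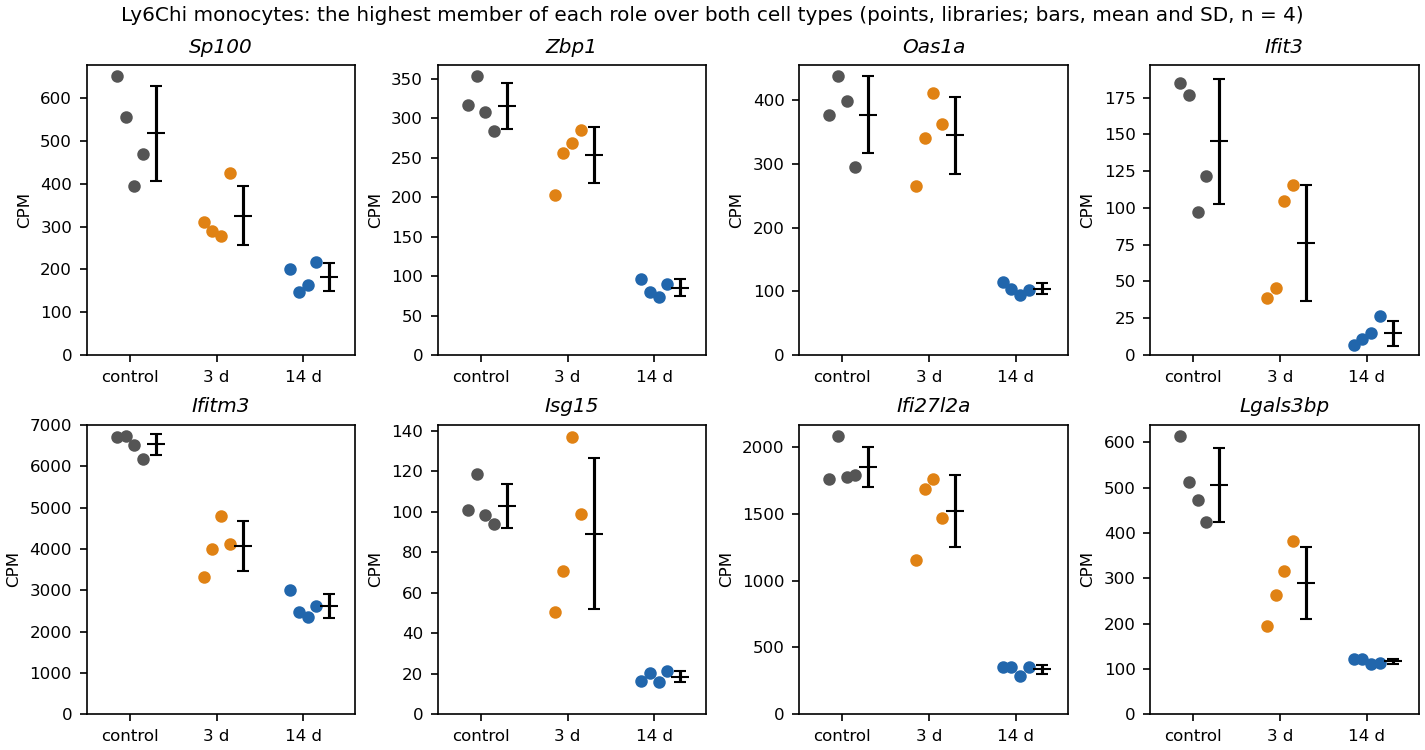
CPM of the member with the highest mean log2 CPM over both cell types in each of 8 roles, in every monocyte library (points) with the mean and SD of each group (bars, n = 4), on axes that start at 0. In all 8 panels the 14 d points lie below every control and 3 d point, while the 3 d points overlap the control points for all but *Ifitm3* and *Lgals3bp*.

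Other cell types moved in the same samples. The 6 markers of NK and T cells summed to 343.6 to 1447 CPM in control monocytes, 13.5 to 271 CPM at 3 d and 18.2 to 36.6 CPM at 14 d, none of them at 0 in a whole group, and the 4 markers of patrolling monocytes summed to 2011 to 2433, 366 to 623 and 296 to 571 CPM. The 5 plasmacytoid dendritic cell markers, of cells known as strong producers of interferon, summed to 49.9 to 74.8 CPM in control and 42.5 to 55.0 CPM at 14 d, and their defining marker *Siglech* did not pass 3.34 CPM in any monocyte library. Markers of B cells summed to 73.6 to 106 CPM in control, 27.9 to 44.7 CPM at 3 d and 23.4 to 48.1 CPM at 14 d, with 4 of 4 called lower at 14 d. Neutrophil markers ran the other way in sum. They held 150.4 to 276 CPM in control, 178 to 411 CPM at 3 d and 558 to 924 CPM at 14 d. Of these 5 markers, 1 was called higher at 14 d. Alveolar macrophage markers summed to 560.2 to 1458, 192 to 407 and 405 to 763 CPM. The 5 conventional dendritic cell markers summed to 225 to 370, 24.7 to 182 and 113 to 184 CPM. Of these, 1 was called higher and 1 lower at 14 d. Bulk libraries cannot tell fewer cells of a type from less RNA per cell, and the part of these cells in the loss was not tested. Without the 2 control libraries with the most NK and T cell marker reads, a choice made after seeing the data, the fit called 43 genes lower at 14 d, with a median of -2.26. These 2 libraries, control replicates 3 and 4, were the lowest control library in 26 and 14 of the 43 genes. Leaving them out therefore raises the control level, and the fit cannot show the part of NK and T cells.

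At 3 d fewer members were called. Of the 43, 13 were called lower than in control and 0 higher, against 14.4% of all genes tested called lower, and 23 of the 43 had an unadjusted p under 0.05 (edgeR). Their median log2 fold change was -0.55, against 0.22 over all genes tested. Among genes with 10 CPM or more in control, 36.4% of 7752 were called lower with a median of -0.51, and of the 42 members at that level 13 were called with a median of -0.55. The 13 were *Irf9*, *Sp100* and *Phf11d* among the regulators, *Eif2ak2*, *Ifit3b*, *Ifitm3*, *Bst2*, *Herc6*, *Rsad2*, *Isg20*, *Parp14*, *Slfn5* and *Lgals3bp*. The largest were *Ifit3b* at -1.18 (SE 0.41, edgeR adjusted p = 0.0245) and *Rsad2* at -0.96 (SE 0.33, edgeR adjusted p = 0.0261). *Lgals3bp* changed by -0.81 (SE 0.18, edgeR adjusted p = 0.0031) and *Sp100* by -0.67 (SE 0.19, edgeR adjusted p = 0.00937). *Ifit2* had a larger value, -1.27, that did not pass the test (SE 0.53, edgeR adjusted p = 0.0558).

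These 3 d calls rested on the scaling and on single libraries. The 3 d monocyte libraries held reads of 40119 to 41134 genes against 24775 to 30865 in control, and TMM factors of 1.20 to 1.24 against 0.84 to 0.92. With upper quartile scaling, with plain library size, with TMM factors from genes above a mean log2 CPM of 5 or with only genes above a mean log2 CPM of 1, edgeR called 0 members, with 0, 1, 1 and 3 of them at an unadjusted p under 0.05, and the median of all genes stood at 0.62, 0.70, 0.74 and -0.04. DESeq2 called 6 and edgeR with no filter on low counts 25. Leaving out 1 library left 3 calls without 3 d replicate 1 or 2, 7 without 3 d replicate 3 or control replicate 1, 22 without control replicate 3 and 23 without 3 d replicate 4. Replicate 1 was the lowest of the 4 libraries at 3 d in 29 of the 43 genes, and replicate 2 in 10.

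Between 3 d and 14 d, 42 of 43 members were called lower, against 34.5% of all genes tested, with a median of -1.57 against -0.26. The exception was *Irf9*, at -0.47 (SE 0.14, edgeR adjusted p = 0.0144), which passed the adjusted p but not the fold change. In 39 of the 43 every 14 d library lay below every 3 d library, against 35.9% of all genes tested. The members that did not separate were *Ifit2*, *Parp14*, *Slfn8* and *Cxcl10*. These changes use the same 3 d and 14 d libraries as the comparisons with control and are not independent of them.

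The alveolar macrophages at 14 d were divided. Against control, 7 members were called higher, 14 lower and 22 neither, where 39.4% of the 20944 genes tested were called higher and 22.9% lower. The median of the members was -0.07 and that of all genes 0.18. Of the 43, *Ifi44*, *Mx2* and *Ifit3b* passed the filter on low counts only through the 14 d libraries, so that they had to be higher there, and among the other 40 members 5 were called higher and 14 lower. The direction followed the level of the gene. The 7 genes called higher had 0.206 to 5.49 CPM in control, and the 14 called lower had 14.4 to 211 CPM. Over all genes the same held: of 11811 genes under 10 CPM in control, 65.8% were called higher, with a median log2 fold change of 2.34, and of 9133 genes at 10 CPM or more, 45.9% were called lower, with a median of -0.54. Of the 25 members under 10 CPM, 7 were higher and 0 lower with a median of 0.64, and of the 18 at 10 CPM or more, 0 were higher and 14 lower with a median of -1.07. The macrophage libraries at 14 d held reads of 27699 to 30627 genes at the lowest depth of the series, against 21951 to 27616 in control.

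**Figure D3:**
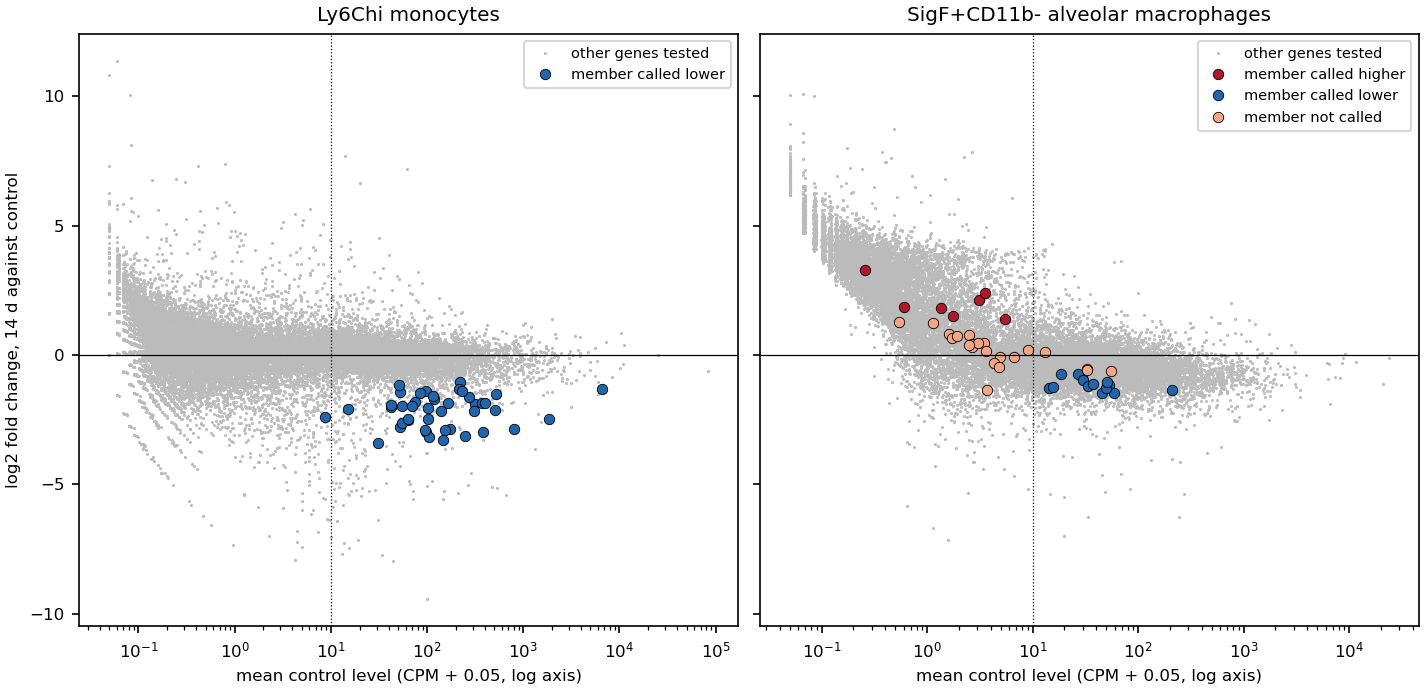
The log2 fold change at 14 d against control is plotted against the mean control level in CPM (log axis, 0.05 added) for all genes tested (grey) and the 43 members (circles), with a dotted line at 10 CPM. In monocytes all 43 members lie below 0 at every level, whereas in macrophages the whole cloud slopes down and the members called higher lie left of the line and those called lower right of it, a split of 7 to 14 that became 13 to 8 with TMM factors from highly expressed genes.

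The 7 genes called higher were *Oasl1*, *Oasl2*, *Ifitm3*, *Mx2*, *Usp18*, *Ifi44* and *Slfn5*, and none of them changed direction under another scaling. *Oasl2* had 2.05, 5.17, 4.00 and 2.59 CPM in control macrophages, 3.44, 3.57 and 6.05 CPM at 3 d and 23.2, 19.9 and 10.99 CPM at 14 d. Each 14 d library was above every other library, a change of 2.39 against control (SE 0.34, edgeR adjusted p = 3.34e-05) and of 2.07 against 3 d (SE 0.37, edgeR adjusted p = 0.000409). *Ifi44*, a GTP-binding protein gene, had 0.274, 0.152, 0.131 and 0.266 CPM in control, 0.430, 0.621 and 0.104 CPM at 3 d and 1.58, 2.77 and 1.86 CPM at 14 d. The control and 3 d values are a few reads each, 12 reads over 4 control libraries against 44 over 3 libraries at 14 d, a ratio of 10.2 with an exact counting interval of 5.28 to 21.1 (95%), which covers counting error only. The fitted change of 3.27 (SE 0.62, edgeR adjusted p = 0.000348) depends on the prior count at such depth and is no test of the rise, since the high 14 d values let the gene pass the filter. *Mx2*, annotated as a polymorphic pseudogene, had 31 reads over the control libraries and 43 at 14 d, a ratio of 3.85 with an interval of 2.37 to 6.31 (95%), and passed the filter in the same way.

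*Ifitm3* had 2.19, 2.13, 4.59 and 3.45 CPM in control, 10.2, 5.43 and 14.1 CPM at 3 d and 19.6, 13.9 and 6.93 CPM at 14 d. The libraries of both later times lay above all control libraries and overlapped each other. Its change was 1.67 at 3 d (SE 0.38, edgeR adjusted p = 0.0455) and 2.12 at 14 d (SE 0.39, edgeR adjusted p = 0.000278). *Usp18* had 0.822, 1.597, 2.16 and 0.598 CPM in control, 3.58, 1.40 and 3.86 CPM at 3 d and 4.75, 4.16 and 4.73 CPM at 14 d, a change of 1.80 at 14 d (SE 0.46, edgeR adjusted p = 0.0027). Its 14 d libraries lay above the rest. *Slfn5* had 5.55, 4.94, 6.69 and 4.78 CPM in control, 8.31, 6.60 and 15.3 CPM at 3 d and 22.3, 13.1 and 7.95 CPM at 14 d, a change of 1.40 at 14 d (SE 0.33, edgeR adjusted p = 0.00168). The 3 d and 14 d ranges of *Slfn5* overlapped. *Oasl1* had 1.23, 2.89, 1.44 and 1.33 CPM in control, 2.29, 2.48 and 3.86 CPM at 3 d and 7.49, 5.42 and 1.69 CPM at 14 d, and 1 library at 14 d lay within the control range. Its change was 1.51 (SE 0.46, edgeR adjusted p = 0.0081).

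**Figure D4:**
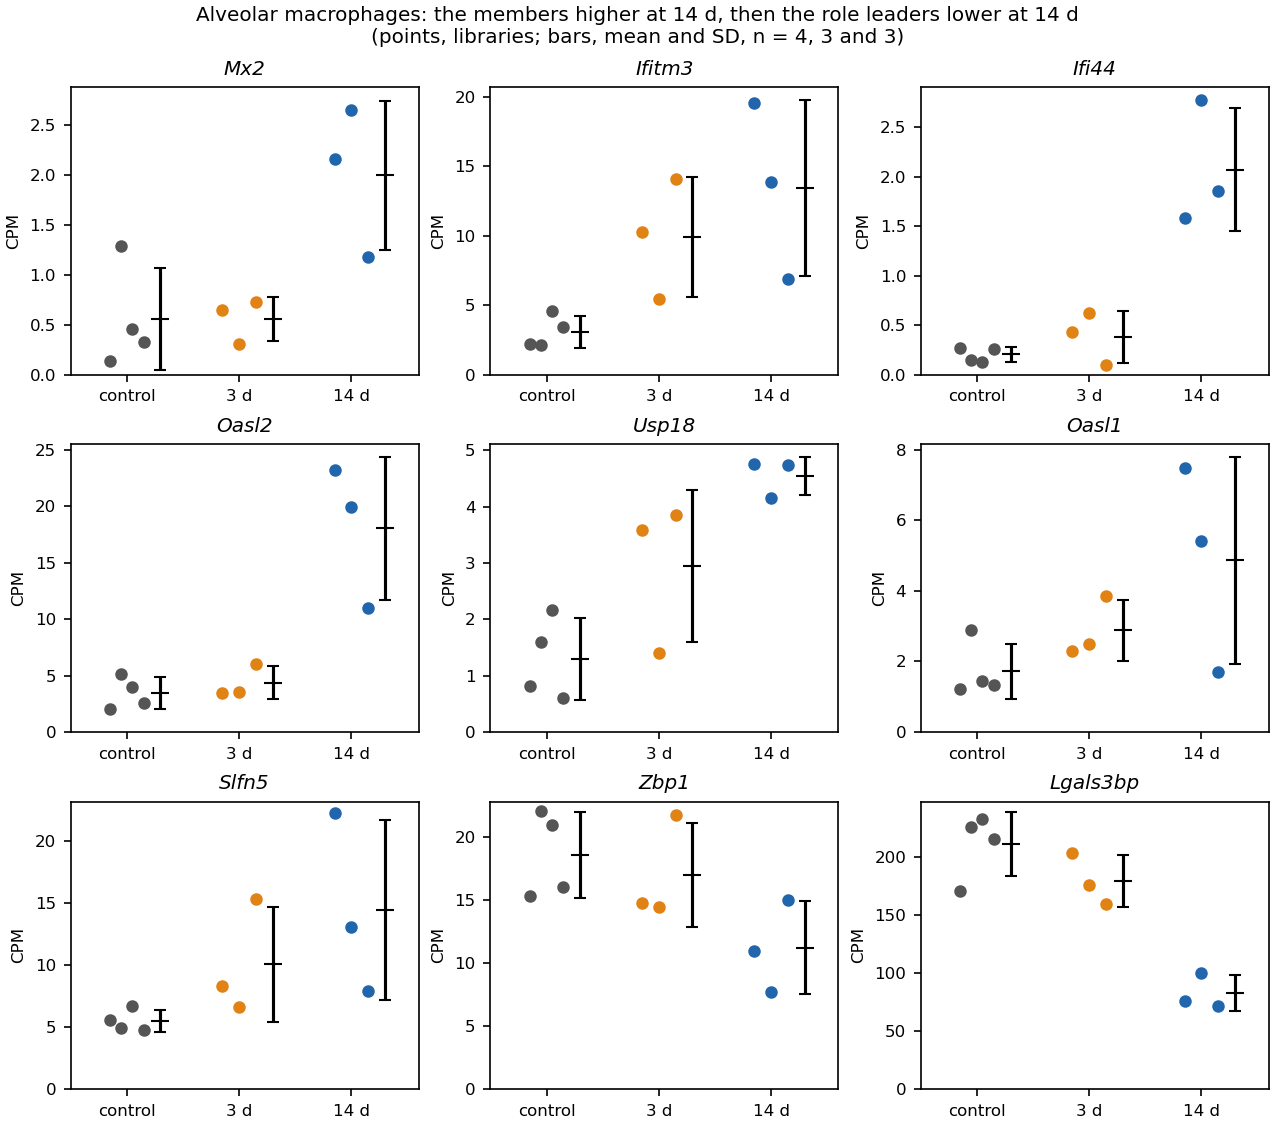
CPM in every macrophage library (points) with the mean and SD of each group (bars, n = 4 in control and 3 at each later time) for the 7 members called higher at 14 d and for *Zbp1* and *Lgals3bp*, role leaders that were called lower, on axes that start at 0. *Oasl2* and *Ifi44* at 14 d stand above all other libraries, *Oasl1* has 1 library at 14 d among the controls, and *Lgals3bp* lies between 71.5 and 100.2 CPM at 14 d against 171 CPM or more in control.

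The 14 genes called lower held all 4 sensors, *Stat2* and *Irf9* among the regulators, and *Eif2ak2*, *Bst2*, *Herc6*, *Ifi35*, *Ifi47*, *Trim30a*, *Parp14* and *Lgals3bp*. Their log2 fold changes ran from -1.47 for *Ifih1* (SE 0.18, edgeR adjusted p = 9.81e-06) to -0.72 for *Dhx58* (SE 0.17, edgeR adjusted p = 0.00188). *Lgals3bp*, the most abundant member of macrophages, had 171, 226, 233 and 215 CPM in control, 203, 175 and 159 CPM at 3 d and 76.2, 100.2 and 71.5 CPM at 14 d. The 14 d libraries lay well below the rest, a change of -1.35 (SE 0.16, edgeR adjusted p = 8.81e-06). *Zbp1* had 15.3, 22.1, 21.0 and 16.1 CPM in control, 14.8, 14.5 and 21.8 CPM at 3 d and 10.9, 7.69 and 15.0 CPM at 14 d, a change of -0.74 at 14 d (SE 0.24, edgeR adjusted p = 0.0134). Its 14 d values lay below the control values, and 1 of them lay within the range of the 3 d values. *Ifi35* shares 16.8% of its exonic length with *Gm11626* on the other strand, and since the counting is not stated to use strand these reads cannot be told apart.

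The split between the directions moved with the scaling, from 7 higher and 14 lower to 9 and 11 with upper quartile scaling, 11 and 10 with plain library size and 13 and 8 with TMM factors from highly expressed genes, as the median of all genes went from 0.18 to 0.53, 0.61 and 0.74. The members' median became 0.28, 0.37 and 0.49 in the same settings. The members not called included all 4 IFIT genes and *Isg15*. *Ifit3* had 1.23, 3.57, 3.28 and 1.66 CPM in control macrophages, 1.43, 2.25 and 3.02 CPM at 3 d and 4.75, 4.03 and 0.507 CPM at 14 d. *Ifit1* had 1.23, 5.09, 2.16 and 2.06 CPM in control, 2.15, 1.63 and 2.09 CPM at 3 d and 5.33, 2.27 and 2.20 CPM at 14 d. The groups of both genes overlapped, with adjusted p-values of 0.559 and 0.564 at 14 d (edgeR). *Ifit3b* had 0.411, 1.22, 0.197 and 0.133 CPM in control, 0.358, 0.466 and 0.730 CPM at 3 d and 1.44, 0.756 and 1.35 CPM at 14 d, a change of 1.27 that did not pass (SE 0.71, edgeR adjusted p = 0.122). These are low values: 3 reads in the shallowest library equal 0.507 CPM.

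*Isg15* had 3.42, 6.01, 5.90 and 4.25 CPM in control macrophages, 6.23, 3.18 and 7.30 CPM at 3 d and 7.78, 4.66 and 1.18 CPM at 14 d, a change of -0.09 at 14 d (SE 0.45, edgeR adjusted p = 0.865), and the sign of this value turned under other scalings. The 14 d libraries lay on both sides of the control range. *Rsad2* had 1.71, 2.81, 3.34 and 1.93 CPM in control, 1.43, 1.40 and 1.67 CPM at 3 d and 6.05, 4.41 and 1.86 CPM at 14 d. *Rtp4* had 1.64, 4.03, 2.62 and 2.06 CPM in control, 3.73, 2.56 and 5.21 CPM at 3 d and 4.75, 3.53 and 2.03 CPM at 14 d. Both overlapped between control and 14 d, but *Rsad2* was called higher at 14 d than at 3 d, by 1.46 (SE 0.45, edgeR adjusted p = 0.0109). *Ifi27l2a* had 8.42, 17.9, 14.9 and 10.5 CPM in control, 12.9, 13.8 and 29.1 CPM at 3 d and 18.7, 15.4 and 7.44 CPM at 14 d. *Isg20* had 2.602, 2.89, 4.59 and 1.93 CPM in control, 3.65, 3.41 and 5.11 CPM at 3 d and 5.33, 4.91 and 2.03 CPM at 14 d. Neither stood apart at any time. *Oas1a* had 24.4, 46.3, 32.5 and 26.7 CPM in control, 30.2, 23.4 and 42.9 CPM at 3 d and 20.6, 27.1 and 17.6 CPM at 14 d, a change of -0.57 (SE 0.25, edgeR adjusted p = 0.0512). *Sp100* had 35.3, 33.7, 37.1 and 25.2 CPM in control, 38.3, 34.5 and 55.3 CPM at 3 d and 25.2, 26.5 and 15.0 CPM at 14 d, a change of -0.56 that passed the adjusted p but not the fold change (edgeR adjusted p = 0.032). The 14 d library numbered 3, the shallowest, was the lowest of the 3 in 36 of the 43 genes. Without it, 10 members were called higher and 14 lower, and the median of the members was 0.28.

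At 3 d, macrophages differed little from control. *Ifitm3*, described above, was the only member called, higher by a fold change above 1.5, against 1.05% of all genes tested called higher. The members' median was 0.02 and that of all genes -0.01, 0 members were called lower, and 6 had an unadjusted p under 0.05 (edgeR), while DESeq2 called 1. The call of *Ifitm3* was lost without control replicate 1, 2 or 4, without 3 d replicate 1 or 3, without 14 d replicate 2, with the replicate block and in a fit of the groups compared alone. Without 3 d replicate 2, 4 members were called, 3 higher and 1 lower. From 3 d to 14 d, 4 members (*Rsad2*, *Oasl2* and *Ifi44* and *Mx2*, which passed the filter only through the 14 d libraries) were called higher, against 36.3% of all genes tested, and 14 lower, against 20% of them. This split became 7 and 7 with plain library size and 8 and 6 with TMM factors from highly expressed genes.

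Marker sums of other cells moved in the macrophage libraries as well. The 8 alveolar macrophage markers summed to 6265 to 7341 CPM in control and 2313 to 3125 CPM at 14 d, and 6 of them were called lower. The 4 B cell markers summed to 54.2 to 142 CPM in control, 166 to 529 CPM at 3 d and 88.5 to 163 CPM at 14 d, and the 4 lung epithelial markers to 129.5 to 208, 446 to 722 and 76.5 to 160.4 CPM. Of the B cell markers, 0 were called against control at either time. Of the epithelial markers, 0 were called higher and 1 lower at 3 d, and 1 higher and 2 lower at 14 d. Plasmacytoid dendritic cell markers summed to 16.7 to 23.1 CPM in control and 35.8 to 38.3 CPM at 14 d. Those of conventional dendritic cells summed to 5.40 to 16.7 and 16.4 to 38.0 CPM, and those of neutrophils to 54.3 to 198 and 25.0 to 49.7 CPM. Of the markers tested, 2 of 3, 3 of 5 and 2 of 3 were called higher at 14 d, and 1 neutrophil marker lower. Over all genes tested, 39.4% were called higher. The 6 classical monocyte markers summed to 634 to 961 CPM at 14 d against 670.3 to 812 CPM in control, and *Ly6c2* stayed at 1.18 to 6.19 CPM at 14 d. Of these 6, which include *Itgam*, 2 were called higher and 0 lower at 14 d, with a median log2 fold change of 0.63. The part of these cells in the changes of the members was not tested.

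The cell types differed in the change at 14 d for 28 of the 43 genes. The contrast tested was the macrophage change minus the monocyte change, fitted over all 22 libraries. In all 28 the change, not the level, was higher in macrophages, as for 16.9% of the 26692 genes tested. The members' median was 2.08, against 0.48 over all genes. The 28 included all 7 genes called higher in macrophages, 19 of the 22 not called there and 2 of the 14 called lower there. The counts of other settings ran from 23 to 38. *Oasl2* gave a difference of 5.01 (SE 0.45, edgeR adjusted p = 1.74e-07), *Oasl1* of 3.82 (SE 0.43, adjusted p = 1.13e-06), *Usp18* of 4.30 (SE 0.49, adjusted p = 1.96e-06) and *Ifi44* of 5.33 (SE 0.65, adjusted p = 2.87e-06). In each of these the monocyte libraries at 14 d were the lowest of their cell type, and for *Oasl2*, *Usp18* and *Ifi44* the macrophage libraries at 14 d were the highest of theirs. The difference was close to 0 for *Bst2*, at 0.02 (SE 0.26), *Stat2*, at -0.07 (SE 0.31), and *Irf9*, at -0.14 (SE 0.24), which were called lower in both cell types. As the members of both cell types lie at different levels, and macrophage changes at 14 d followed the level over all genes, the part of the level in these differences was not tested.

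**Figure D5:**
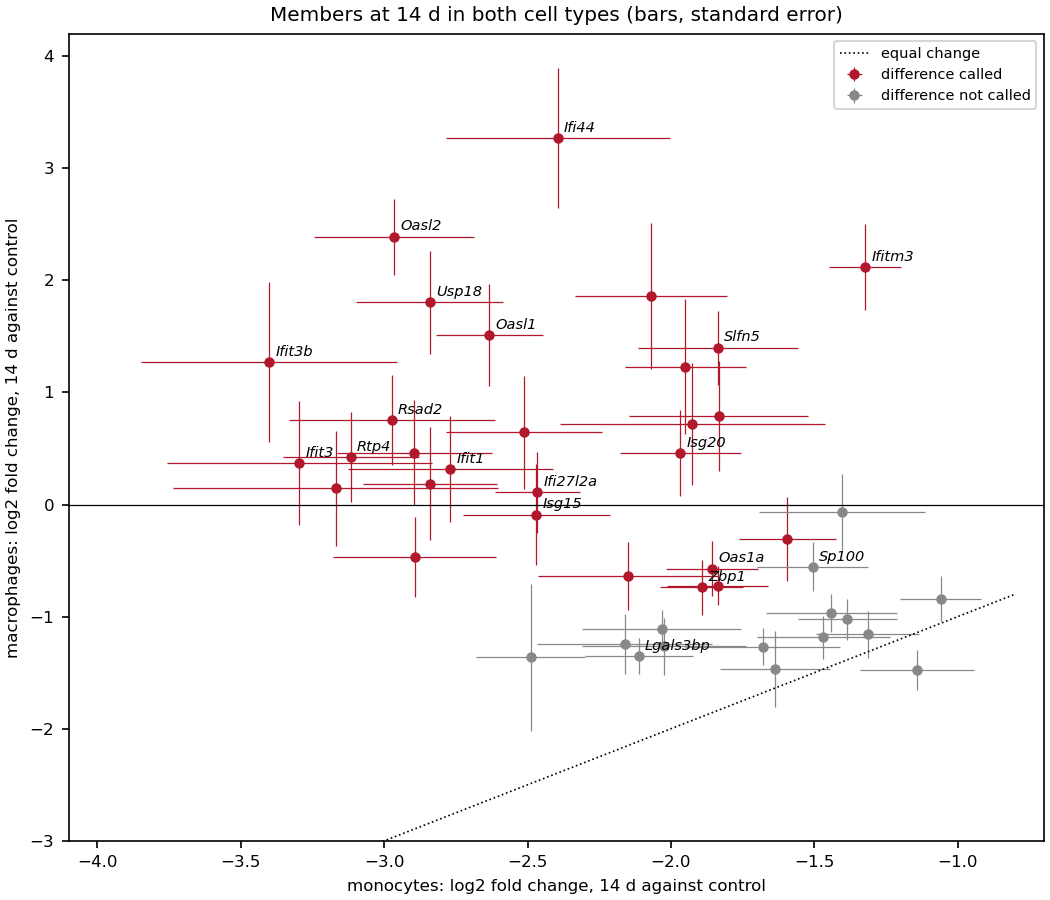
Each point is 1 member, placed by its log2 fold change at 14 d against control in monocytes (horizontal) and in macrophages (vertical), with standard errors as bars, and coloured by whether the difference between the cell types was called. All points lie left of 0 on the monocyte axis, 28 are called, and the uncalled points lie nearer the dotted line of equal change.

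At 3 d, 4 members differed between the cell types, against 3.51% of all genes tested, all with the higher change in macrophages. They were *Ifitm3*, at 2.17 (SE 0.40, edgeR adjusted p = 0.00189), *Slfn5*, at 1.38 (SE 0.47, edgeR adjusted p = 0.0439), *Isg20*, at 1.09 (SE 0.39, edgeR adjusted p = 0.0498), and *Sp100*, at 0.87 (SE 0.30, edgeR adjusted p = 0.0432). *Ifitm3* alone was called in every setting run. Leaving out 1 library left 1 call without monocyte control 1, monocyte 3 d 1 or 2, macrophage control 1, 2 or 4 or macrophage 3 d 3, and 2 calls without monocyte control 2, monocyte 3 d 3, macrophage 3 d 1 or macrophage 14 d 2.

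Of 34 other listed genes of the pathway, for ligands, receptors, kinases, factors, sensors, adaptors and feedback inhibitors, 27 were tested in monocytes. At 14 d 2 were called higher and 7 lower, with a median of -0.42. Of all 22353 genes tested, 720 were called higher and 5.34% lower, the latter 11.1% among genes at 10 CPM or more. The 4 receptor genes summed to 1649 to 2134 CPM in control, 779 to 1177 CPM at 3 d and 1216 to 1581 CPM at 14 d, and their median log2 fold change at 14 d was -0.33. The factors *Irf1*, at -1.80 (SE 0.20, edgeR adjusted p = 5.98e-05), and *Irf8*, at -1.07 (SE 0.18, edgeR adjusted p = 0.00183), were lower, and so were the endosomal RNA and DNA receptors *Tlr7* (-1.04, edgeR adjusted p = 0.00891) and *Tlr9* (-1.30, edgeR adjusted p = 0.0127). *Socs3*, a feedback inhibitor of cytokine receptors, was higher, at 1.89 (SE 0.34, edgeR adjusted p = 0.00243), and so was the kinase gene *Jak2* (1.281, edgeR adjusted p = 0.0357). At 3 d, 1 of the 27 was called higher and 13 lower, on the scaling described above. Of all 22353 genes, 8215 were called higher and 14.4% lower, the latter 36.4% among those at 10 CPM or more.

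Transcripts of the interferons themselves were scarce. The 9 listed ligand genes summed to at most 4.3 CPM in any monocyte library and 3.7 CPM in any macrophage library, and 4 of the 9 had a row in the macrophage table. *Ifnb1*, the first interferon made by most cells, had 0 to 6 reads per control monocyte library, 13 to 19 at 3 d and 1 to 5 at 14 d, a change of 2.59 at 3 d (SE 0.81, edgeR adjusted p = 0.0155) in libraries where most genes of low level were called higher (55.9% of 14601 genes under 10 CPM in control). In macrophages at 14 d, 3 of 25 tested pathway genes were called higher and 14 lower, with a median of -0.62, where 39.4% of all genes were called higher and 22.9% lower, the latter 45.9% among genes at 10 CPM or more. The higher ones were the feedback inhibitors *Socs1* (2.61, SE 0.52, edgeR adjusted p = 0.000882) and *Socs3* (1.999, SE 0.70, adjusted p = 0.0329) and the kinase *Jak2* (1.17, SE 0.21, adjusted p = 0.000202). The lower ones included the RNA receptor *Tlr7* (-1.996, SE 0.15, edgeR adjusted p = 2.84e-07) and the adaptor *Mavs* of the cytosolic RNA sensors (-1.99, SE 0.18, adjusted p = 1.18e-06). At 3 d, the median of the 25 in macrophages was -0.10.

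Members with and without the promoter motif were then set side by side. In monocytes at 14 d the 14 genes with the motif had a median of -2.20 and the 20 with a window and no motif -2.03. All of them were called lower, against 5.34% of all genes tested. In macrophages at 14 d, 1 of the 14 was called higher and 3 lower, with a median of 0.12, and 4 of the 20 were called higher and 8 lower, with a median of -0.51. Over all genes tested there, 39.4% were called higher and 22.9% lower. The 4 include *Ifi44*, which passed the filter only through the 14 d libraries. The sets were not matched for control level, which the macrophage changes followed. These medians are descriptions of the members and were not compared by a test.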

How the data were processed

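RNA of sorted cells was enriched with oligo(dT) beads and made into NEBNext Ultra libraries. The submitters' processing notes name STAR 2.7.2c and 2.7.3a, featureCounts 1.6.3 and DESeq2 1.26.0 and 1.28.1, with builds GRCm38 and mm10. The deposited values are raw counts of reads per gene, 1 table for each cell type, and the strand setting is not given in the sources used here. There are 55421 genes in the monocyte file and 31134 genes in the macrophage file, where no gene has fewer than 6 reads in all. Gene IDs were matched to GENCODE annotation of GRCm38.

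Groups came from the sample labels. Each table was tested with edgeR 4.0.16 (filterByExpr, TMM, robust quasi-likelihood fit over 3 groups, two-sided) in R 4.3.3, and p-values were adjusted by Benjamini and Hochberg's method across every gene in the fit. Calls needed an adjusted p under 0.05 and a fold change above 1.5. The difference between cell types was a contrast over 22 libraries and the genes of both tables. The scripts were tested on simulated counts with known changes. For monocytes at 14 d, macrophages at 14 d and the difference at 14 d, 46.7%, 77.2% and 33% of 4-fold changes were recovered. Of 2-fold changes, 7.87%, 40.2% and 1.14% were recovered. Of the calls, 5.77%, 8.47% and 3.23% were false. A member not called is therefore not shown to be unchanged. Few genes were changed in the simulation, as many up as down, and no shift between libraries was put in. In the real macrophages at 14 d, 13051 of 20944 genes were called and the calls moved with the scaling. The simulated rates therefore need not hold for the members. Alternatives were DESeq2 1.42.0, other scalings and filters, a replicate block and leaving out each library. Values by library are given for the member of highest mean log2 CPM in each role, the 2 called members of largest change per contrast and up to 4 members per difference between cell types, by adjusted p. Other members are named for the ends of a range or for their role. The members and lists were chosen with earlier results of these data known. Intervals and floors of 3 counts cover counting error only.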

Additional observations from a re-analysis of the deposited data

Results flagged for a closer look

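Of 72 group values examined among the named members, 5 held a library far from the others of its group, and chance flags about 1 in 20, or 3.60 of 72. The check needed at least 4 libraries in a group, so the macrophage groups at 3 d and 14 d were not examined. In control monocytes *Ifi27l2a* was high in replicate 2, with 2081 CPM against 1759 to 1796 CPM in the others. At 14 d, monocyte replicate 3 was low for *Ifi27l2a*, with 284 CPM against 351 to 355 CPM, and monocyte replicate 4 was high for *Oasl2*, with 73.4 CPM against 39.4 to 41.0 CPM, and for *Usp18*, with 33.1 CPM against 19.7 to 21.98 CPM. In control macrophages replicate 2 was high for *Oasl1*, with 2.89 CPM against 1.23 to 1.44 CPM. Monocyte replicate 4 at 14 d was the highest of its group in 33 of the 43 genes, and all its values here stayed below the control range.

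The change differed between the cell types, by the interaction test of edgeR, for 4 members at 3 d and 28 at 14 d. At 3 d the difference, macrophages minus monocytes on the log2 scale, was 2.17 for *Ifitm3*, 0.87 for *Sp100*, 1.09 for *Isg20* and 1.38 for *Slfn5*. At 14 d it was 5.33 for *Ifi44*, 5.01 for *Oasl2*, 4.36 for *Ifit3b*, 4.30 for *Usp18*, 3.82 for *Oasl1*, 3.39 for *Rsad2*, 3.33 for *Ifit3*, 3.21 for *Rtp4* and 3.09 for *Ifitm3*. Smaller differences at 14 d were 2.89 for *Slfn5*, 2.76 for *Ifit1*, 2.23 for *Ifi27l2a*, 2.08 for *Isg20*, 2.04 for *Isg15*, 0.94 for *Oas1a* and 0.82 for *Zbp1*.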

How the results depend on the processing

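The 43 calls of monocytes at 14 d stayed at 42 or 43 under all alternatives run, and the counts of monocytes from 3 d to 14 d, of macrophages at 14 d against either group and of the difference at 14 d stayed within 1.5 times the reported count. The members called in monocytes at 3 d (13) became 6 with DESeq2, 5 with RLE size factors, 0 with upper quartile scaling, 0 with library size scaling, 0 with TMM from highly expressed genes, 25 with no filter, 0 with only genes above a mean log2 CPM of 1, 24 without the 2 control libraries richest in NK and T cell markers, and 3 to 23 without 1 library. Their median became -0.0659 with library size scaling and -0.0269 with TMM from highly expressed genes. The 1 call of macrophages at 3 d became 0 with the replicate block, 0 in a fit of the groups compared alone and 0 to 4 without 1 library. The 4 differences at 3 d became 1 with upper quartile scaling, library size scaling, TMM from highly expressed genes, only genes above a mean log2 CPM of 1 or the replicate block, 11 with fewer control monocytes (median 0.96), and 1 to 5 without 1 library. The median from 3 d to 14 d in monocytes became -2.04, and that of macrophages at 14 d 0.49, with TMM from highly expressed genes. The median difference at 14 d became 2.77, 2.75, 2.94 and 2.59 with upper quartile scaling, library size scaling, TMM from highly expressed genes and only genes above a mean log2 CPM of 1. *Irf9* turned to a called difference of 0.71 at 14 d with TMM from highly expressed genes. The causes were not tested.

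Same-numbered control and 14 d monocyte libraries deviated from their group means with r from 0.0892 to 0.521 (mean 0.280), and the other groups with means of -0.0612 to 0.0723. These correlations run across genes, and genes are not independent replicates. As not every pair passed 0.1, the numbers were not taken to pair libraries. With the replicate block, 17 members were called in monocytes at 3 d, 43 at 14 d and 41 from 3 d to 14 d, and 7 higher and 17 lower in macrophages at 14 d. Depth limits the macrophage values at 14 d, where 3 reads equal 0.378 to 0.507 CPM.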

Other observations

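The GTPases induced mainly by interferon gamma moved with the members in monocytes. Of 9 listed genes (*Gbp2*, *Gbp3*, *Gbp5*, *Gbp7*, *Irgm1*, *Irgm2*, *Igtp*, *Iigp1* and *Tgtp1*), which attack the vacuoles of microbes inside the cell, all 9 were called lower at 14 d, with a median log2 fold change of -1.87, and 1 at 3 d, where 5.34% and 14.4% of all genes tested were called lower. The largest change was that of *Tgtp1*, at -2.46 (SE 0.41, edgeR adjusted p = 0.00157), and the smallest that of *Gbp7*, at -0.97 (SE 0.22, edgeR adjusted p = 0.0118). In macrophages at 14 d, 5 of the 9 were called lower and 1 higher, the latter *Iigp1* at 2.16 (SE 0.53, edgeR adjusted p = 0.00216), and the median was -0.75, where 22.9% of all genes were called lower and 39.4% higher.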
